A study of Mus musculus with 20 samples.

Results

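The anterior pituitary hormone genes were followed across mouse brain RNA-seq libraries. They are 9 genes taken by name: Gh, Prl, Pomc, Tshb, Cga, Lhb, Fshb, Pou1f1 and Ghrhr. The rule itself uses no measured value, but the members were chosen with earlier results of these data known. All 9 had a row among the 23845 genes of the deposited tables. The series profiled brains of single-isoform JNK knockout mice and their controls, fed a normal diet. It comprised 20 libraries labelled strain C57/Bl6J, in the genotype groups J1 lf/lf (3 libraries), J2 lf/lf (3), J17a (3), J17b (2), J27a (3), J27b (3) and Wild type (3). The series title names a JNK isoform, and JNK1 and JNK2 are stress-activated kinases encoded by Mapk8 and Mapk9. The labels spell out neither the codes nor which form was removed, and give no age or sex. They describe no allele construction, no pooling of animals and no dissection beyond the word brain. They do not say whether 2 libraries of one group are separate animals, and each p-value below therefore measures the spread between libraries, which may be technical.

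The anterior pituitary lies outside the brain proper, below the hypothalamus, to which the pituitary stalk joins it. Its somatotrophs make growth hormone (Gh), its lactotrophs prolactin (Prl) and its thyrotrophs the beta subunit of thyrotropin (Tshb). Gonadotrophs make the beta subunits of luteinizing hormone (Lhb) and of follicle-stimulating hormone (Fshb). Cga encodes the alpha subunit that these glycoprotein hormones share. Corticotrophs, and the melanotrophs of the intermediate lobe, make proopiomelanocortin (Pomc), the precursor of corticotropin and melanocortins, which a group of neurons in the arcuate nucleus of the brain makes as well. Pou1f1 is the transcription factor on which somatotrophs, lactotrophs and thyrotrophs depend, and Ghrhr is the receptor through which growth hormone-releasing hormone acts on somatotrophs.

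Promoters are shown for 4 of the members whose levels are described below, as background on these genes. A link between promoter letters and levels was not tested. Pou1f1 protein binds A/T-rich sites, for which the letters ATGNATA were searched on both strands, and TATAAA, the core of the TATA box, was searched likewise. Capitals mark matches to either motif on either strand. Each sequence is RefSeq's, on build GRCm38.p6, and runs from 250 bases before to 50 bases after the annotated start. The Prl window is chr13:27057320-27057619, the Pou1f1 window chr16:65520262-65520561, the Pomc window chr12:3954695-3954994 and the Cga window chr4:34893529-34893828, all on the plus strand.
Prl promoter: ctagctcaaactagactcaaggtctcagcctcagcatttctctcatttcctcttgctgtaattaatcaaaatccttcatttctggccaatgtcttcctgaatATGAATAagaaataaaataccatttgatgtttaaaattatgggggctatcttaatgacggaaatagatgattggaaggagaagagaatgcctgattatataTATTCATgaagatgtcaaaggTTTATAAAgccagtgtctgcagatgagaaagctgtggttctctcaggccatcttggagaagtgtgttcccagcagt
Pou1f1 promoter: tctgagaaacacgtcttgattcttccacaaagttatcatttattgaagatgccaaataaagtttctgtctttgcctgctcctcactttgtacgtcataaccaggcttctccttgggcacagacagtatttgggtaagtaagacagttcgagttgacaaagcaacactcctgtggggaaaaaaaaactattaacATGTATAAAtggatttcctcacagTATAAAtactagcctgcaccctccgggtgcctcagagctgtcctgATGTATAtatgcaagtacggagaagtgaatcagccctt
Pomc promoter: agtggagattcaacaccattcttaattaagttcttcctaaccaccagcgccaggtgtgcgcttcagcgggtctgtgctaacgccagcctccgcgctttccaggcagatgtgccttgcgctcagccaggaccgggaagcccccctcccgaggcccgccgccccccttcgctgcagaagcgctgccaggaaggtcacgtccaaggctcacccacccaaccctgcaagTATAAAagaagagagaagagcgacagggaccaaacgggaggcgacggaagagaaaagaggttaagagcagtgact
Cga promoter: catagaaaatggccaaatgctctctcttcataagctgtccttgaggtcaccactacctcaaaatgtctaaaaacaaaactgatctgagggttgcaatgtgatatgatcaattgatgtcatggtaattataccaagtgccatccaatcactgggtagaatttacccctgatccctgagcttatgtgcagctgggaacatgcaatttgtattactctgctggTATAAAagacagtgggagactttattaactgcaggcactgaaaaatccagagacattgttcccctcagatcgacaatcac
Of the 9 members, 7 matched the promoter table by symbol, with 8 promoters in all, and Gh and Ghrhr had no entry. The letters ATGNATA occurred in 2 of the 8, with 2 matches each in the Prl promoter and in the first Pou1f1 promoter, and in 8.84% of 32851 mouse promoters of the same length. In Pou1f1, a match to ATGNATA overlaps a match to TATAAA, and the run TTTATAAA in Prl holds TATAAA on both strands. TATAAA on the gene's strand, starting 40 to 20 bases before the transcription start, occurred in the first promoter of all 7 members in the table and in 1.99% of all promoters. Its first base lay 26 bases upstream in Prl (position -26), at -25 in Pomc, -30 in Cga and -33 in Pou1f1. A match is a description of the letters and does not show binding.

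Pituitary transcripts were concentrated in 3 libraries. Levels are TPM (transcript abundance scaled for length and to the same total in every library) unless stated. All 9 members were above 0 in J1 lf/lf replicate 3, in J27a replicate 3 and in Wild type replicate 2, and in no other library. Together they made up 1.16% of all TPM in J1 lf/lf replicate 3, 0.261% in J27a replicate 3 and 0.759% in Wild type replicate 2. J2 lf/lf replicate 2 followed with 8 of the members and 0.0394% of TPM. In the other 16 libraries the share lay between 0.000136% and 0.0078%. These 4 libraries belong to 4 genotypes, 1 of them Wild type, and each stood apart from the other libraries of its own group. Across the series, library totals ran from 21395041 to 33828755 estimated counts. A count of 0 allows up to 3 counts, or 0.0887 to 0.140 CPM (counts scaled to the library total), depending on the library, counting error only. General brain markers (10 genes such as Snap25) summed to between 9662 and 12231 TPM in every library, and the Y-linked gene Ddx3y stood at 35.6 TPM or more in all 20 while Xist stayed at 0.06 TPM or less.

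**Figure D1:**
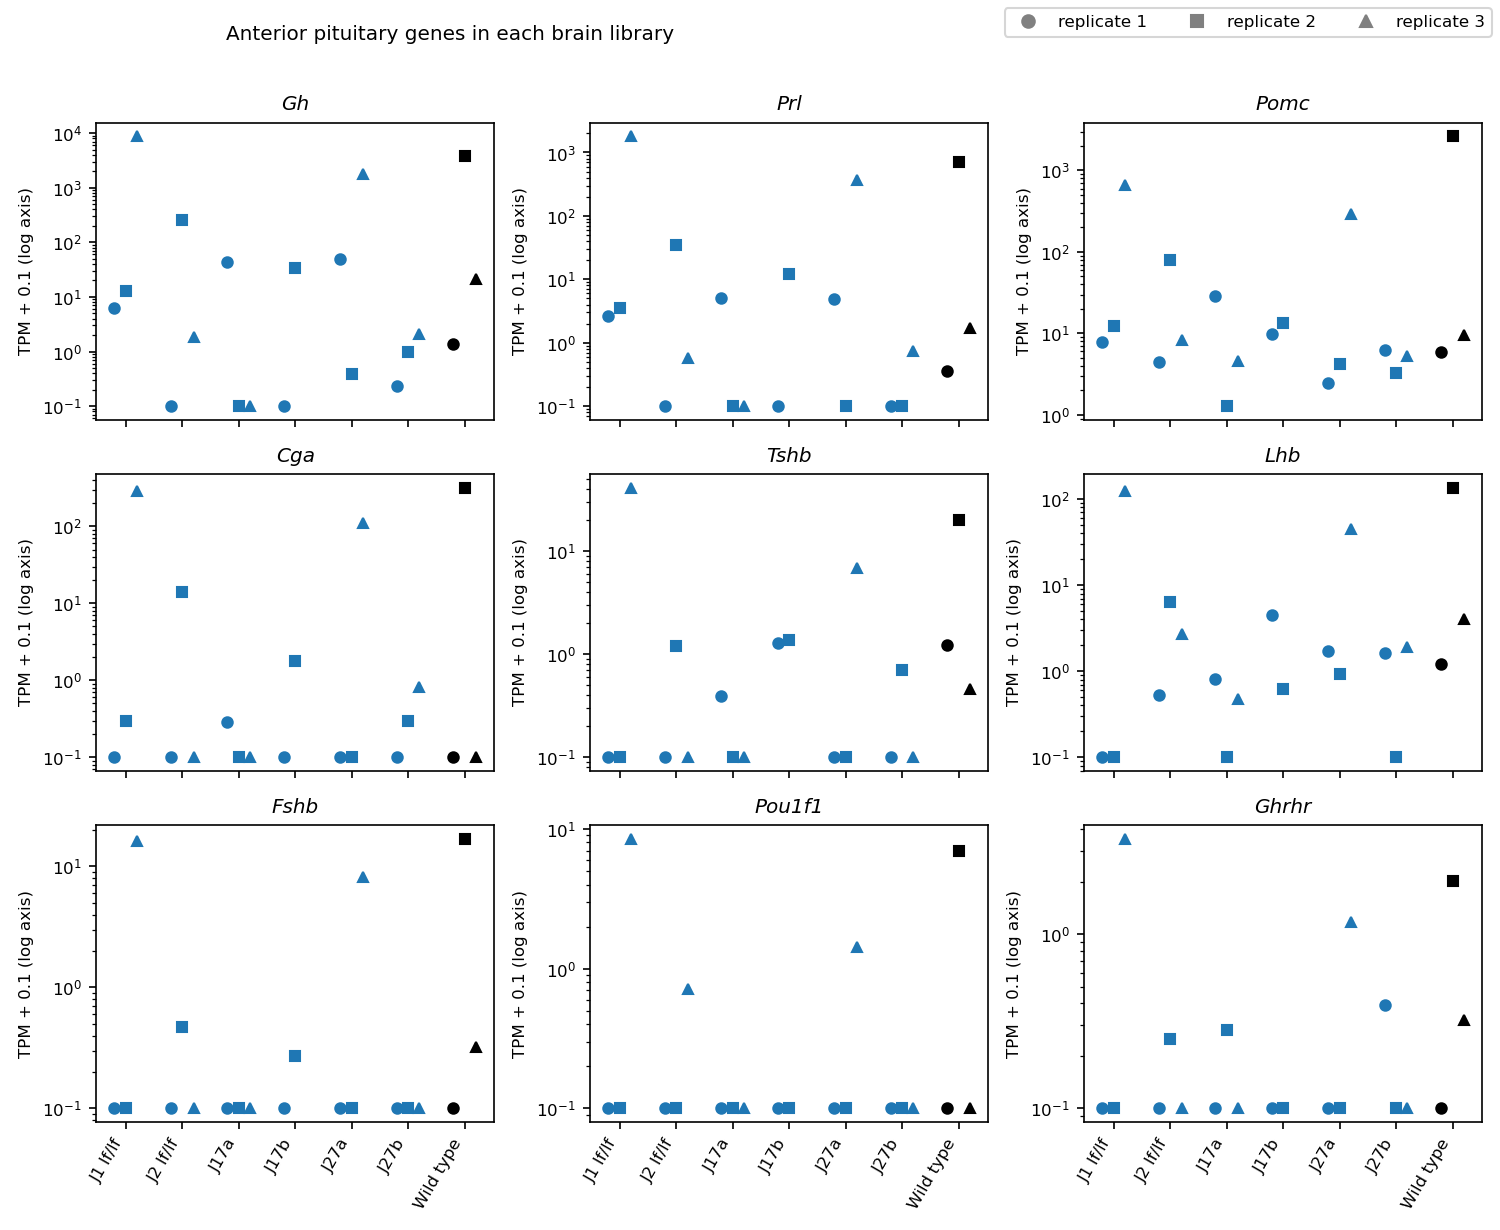
Level of each of the 9 genes in each of the 20 libraries, as TPM + 0.1 on a log axis, with the groups along the horizontal axis and the replicate shown by the symbol (black, Wild type). In every panel J1 lf/lf replicate 3, J27a replicate 3 and Wild type replicate 2 are the 3 points at the top, for Gh at 8706, 1782 and 3761 TPM.

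Gh spanned more than any other member. It stood at 6.14, 12.9 and 8706 TPM in J1 lf/lf, at 0, 259 and 1.77 in J2 lf/lf, at 43.2, 0 and 0 in J17a, and at 0 and 33.2 in J17b. In J27a it stood at 49.1, 0.29 and 1782 TPM and in J27b at 0.13, 0.89 and 2.00, against 1.29, 3761 and 20.9 in Wild type. The range of every line overlapped that of Wild type. Group means of the lines ran in the order J1 lf/lf (2908 ± 5021 TPM, SD, n = 3), J27a (610.4 ± 1015, n = 3), J2 lf/lf (87.0 ± 149, n = 3), J17b (16.6 ± 23.4, n = 2), J17a (14.4 ± 24.9, n = 3) and J27b (1.01 ± 0.94, n = 3), against 1261 ± 2165 (n = 3) in Wild type, which stands between J1 lf/lf and J27a. No neighbours in that order differed beyond their SDs, since 1 library held 97.3% or more of its group's Gh in every group except J27b. Gh lies at chr11:106300271-106301865 on the minus strand of mm10, and no other annotated gene overlaps it.

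The other genes of the somatotroph lineage were found in the same libraries at far lower levels. Pou1f1 reached 8.42 TPM in J1 lf/lf replicate 3, 1.32 in J27a replicate 3 and 6.81 in Wild type replicate 2. It was also at 0.62 TPM, from 5 estimated counts, in J2 lf/lf replicate 3, and at 0 in the other 16 libraries. Ghrhr reached 3.43 TPM in J1 lf/lf replicate 3, 1.08 in J27a replicate 3 and 1.93 in Wild type replicate 2, and 4 other libraries carried 2 to 5 estimated counts of it. Ghrhr lies at chr6:55376295-55388530 on the plus strand. J2 lf/lf replicate 2, with 1637 estimated counts of Gh, held 0 counts of Pou1f1 and 2 of Ghrhr. The 95% interval of its Pou1f1 to Gh count ratio, 0 to 0.00226, includes the ratios of 0.000923 in J1 lf/lf replicate 3, 0.000708 in J27a replicate 3 and 0.00173 in Wild type replicate 2. Pou1f1 (chr16:65520511-65535005, plus strand) overlaps the minus-strand gene Gm49631 over 5661 bases. Whether counting used the strand is not stated, so reads of the overlapping gene could be included.

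Prolactin transcripts tracked Gh. Prl stood at 2.50, 3.38 and 1792 TPM in J1 lf/lf, at 0, 34.1 and 0.48 in J2 lf/lf, at 4.98, 0 and 0 in J17a, and at 0 and 12.2 in J17b. The J27a libraries held 4.71, 0 and 364 TPM and the J27b libraries 0, 0 and 0.63, against 0.26, 714 and 1.60 in Wild type. Every library with 0 Gh also had 0 Prl, and the 3 libraries with the most Gh were the 3 with the most Prl. Over the 20 libraries Pearson's r between Gh and Prl was 0.975 and Spearman's rho 0.972, on log2(CPM + 1), and r was 0.937 over the 17 libraries left without those 3. These correlations are given as descriptions, since both genes were high in the same few libraries. Prl lies at chr13:27057570-27065205 on the plus strand and overlaps Gm47888 on the minus strand over 453 bases.

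Pomc was the one member present in every library, with at least 11 estimated counts. It stood at 7.78, 12.2 and 661 TPM in J1 lf/lf, at 4.37, 79.1 and 8.16 in J2 lf/lf, at 28.9, 1.18 and 4.53 in J17a, and at 9.65 and 13.3 in J17b. In J27a it was at 2.37, 4.07 and 289 TPM and in J27b at 6.16, 3.18 and 5.17, against 5.78, 2618 and 9.35 in Wild type. In the 4 libraries with 0 Gh, Pomc lay between 1.18 and 9.65 TPM, a range that holds the J27b values as well. J1 lf/lf replicate 3, with the most Gh, held 661 TPM of Pomc beside 8706 TPM of Gh, and Wild type replicate 2 held 2618 TPM beside 3761 TPM. Pomc lies at chr12:3954951-3960642 on the plus strand.

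The glycoprotein hormone subunits were nearly confined to the same libraries. Cga, the shared alpha subunit, stood at 285 TPM in J1 lf/lf replicate 3, 14.1 in J2 lf/lf replicate 2, 112 in J27a replicate 3 and 319 in Wild type replicate 2. A further 5 libraries held 0.19 to 1.70 TPM of it, and 11 held 0. Cga lies at chr4:34893779-34907370 on the plus strand and overlaps Platr9 over 1247 bases. Lhb reached 125 TPM in J1 lf/lf replicate 3, 44.4 in J27a replicate 3 and 136 in Wild type replicate 2, with at most 6.33 elsewhere. Unlike Cga, Lhb was above 0 in 16 libraries, and it had up to 9 estimated counts in libraries without any Gh. Lhb (chr7:45420820-45421897, plus strand) shares 138 bases with the minus-strand gene Ruvbl2, which stood at 28.8 to 41.6 TPM in all libraries. Fshb reached 16.2 TPM in J1 lf/lf replicate 3, 8.08 in J27a replicate 3 and 16.9 in Wild type replicate 2, was at or below 0.37 TPM in 3 others and at 0 in 14. Fshb lies at chr2:107056140-107059656 on the minus strand. Tshb reached 41.5 TPM in J1 lf/lf replicate 3, 6.74 in J27a replicate 3 and 20 in Wild type replicate 2. The 7 other libraries with any Tshb held 1 to 5 estimated counts. The whole of Tshb (chr3:102775465-102782718, minus strand, 7254 bases) lies within the plus-strand gene Tspan2, a tetraspanin gene at 76.5 to 127 TPM, so single counts of Tshb are uncertain. In all, these 3 libraries held between 88.5% (Ghrhr) and 98.2% (Fshb) of a member's TPM summed over the series.

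No member was called in any comparison between genotypes. The question was whether the hormone transcripts followed genotype, and the whole table was fitted with edgeR's quasi-likelihood test, with p-values adjusted by Benjamini-Hochberg over 16063 tested genes. All 9 members passed the filter on low counts, through the few libraries that carry them. With J1 lf/lf against Wild type, 0 of 9 members were called at an adjusted p under 0.05, beside 0.0125% of all tested genes, and with J2 lf/lf against Wild type 0 of 9, beside 0.00623%. For J17a against Wild type the count was 0 of 9 beside 0%, for J17b 0 of 9 beside 0.0249%, for J27a 0 of 9 beside 0%, and for J27b 0 of 9 beside 0%. Among the lines, J17a against J17b and J27a against J27b each gave 0 of 9 beside 0%. J17a against J1 lf/lf gave 0 of 9 beside 0.00623%, J17b against J1 lf/lf 0 of 9 beside 0.0311%, and J27a and J27b against J2 lf/lf 0 of 9 each, beside 0.00623% in both. A test of any difference among the 7 groups called 0 of 9 members, beside 0.0872% of all genes. The lowest adjusted p of a member in these tests was 0.632, for Pomc in J2 lf/lf against Wild type. The members' dispersions (variance between libraries beyond counting error, relative to the squared mean) ran from 2.50 (Pomc) to 14.9 (Cga). The median over tested genes was 0.0119. With such spread and 2 or 3 libraries per group, these tests could hardly call a member, and 0 calls do not show equal levels.

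Before adjustment, 3 of the 12 comparisons had members at p under 0.05. Tshb, Pomc, Cga and Lhb were among them in J17a against Wild type (4 of 9, beside 4.39% of all genes). Gh, Prl, Pomc, Cga and Lhb were among them in J27b against Wild type (5 of 9, beside 6.94%). In J17a against J1 lf/lf they were Gh, Prl, Tshb, Cga and Lhb (5 of 9, beside 6.54%). The other 9 comparisons had 0 of 81 member tests at an unadjusted p under 0.05, beside 5.63% of all tests in them. In the test over all groups Tshb had an unadjusted p of 0.0449 and an adjusted p of 0.728 (edgeR), beside 6.71% of genes at an unadjusted p under 0.05. DESeq2 gave no p-value for 91 of 117 member tests and 1 unadjusted p under 0.05, and limma on log2(TPM + 1) gave none. Without the 3 libraries highest in Gh, Prl and Pomc, the filter on low counts left 4 of the 9 members (Gh, Prl, Pomc and Lhb), and no comparison had more than 1 of them at an unadjusted p under 0.05. The comparisons with Wild type share its libraries, Wild type replicate 2 included, and so are not independent of each other. Nor are the 9 members independent within a comparison, since they were high in the same few libraries. Their Pearson's r with Gh on log2(CPM + 1) ran from 0.816 (Pou1f1) to 0.975 (Prl). The counts of 4 and 5 of 9 therefore do not stand for that many separate results.

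Levels that did not overlap between groups were few. In J17a against Wild type, Tshb (0.29, 0 and 0 TPM in J17a, against 1.13, 20 and 0.36 in Wild type) and Lhb (0.72, 0 and 0.37 in J17a, against 1.12, 136 and 3.92 in Wild type) lay below every Wild type library. Of all tested genes, 2.65% did so in that comparison. Tshb in J17a also lay below both J17b libraries (1.18 and 1.28 TPM), as did 9.97% of all genes. These Tshb levels outside Wild type replicate 2 rest on 5 estimated counts or fewer. J17a replicate 1 and Wild type replicate 3 each held 1 estimated count of Tshb, so only the scaling to TPM sets them apart. Lhb rested on 2, 0 and 1 estimated counts in J17a, against 3, 420 and 9 in Wild type. Over all 12 comparisons, 3 of 108 pairs of member and comparison (2.78%) were without overlap, beside 12.7% of all such pairs over the tested genes. A gene at 0 in some library of both groups cannot be without overlap. Cga was at 0 in 11 libraries, Ghrhr in 13, Fshb in 14 and Pou1f1 in 16. These percentages are therefore not a like comparison, and no conclusion is drawn from them.

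The fitted fold changes had wide errors. Gh was fitted at a log2 fold change of 1.23 in J1 lf/lf against Wild type (95% interval -4.28 to 6.73), and at -10.39 in J27b (-20.36 to -0.42, adjusted p = 0.717, edgeR). Prl was fitted at 1.34 in J1 lf/lf (-3.30 to 5.98) and at -10.26 in J27b (-20.30 to -0.22, adjusted p = 0.717, edgeR). Pomc was fitted at -1.94 in J1 lf/lf (-6.34 to 2.46) and at -7.54 in J27b (-13.76 to -1.32, adjusted p = 0.713, edgeR). The 9 members had a median log2 fold change of 0.25 in J1 lf/lf, -4.51 in J2 lf/lf, -6.82 in J17a, -6.29 in J17b, -1.62 in J27a and -7.54 in J27b, each against Wild type. Over all tested genes every such median lay within 0.01 of 0. Without Wild type replicate 2, the fitted Gh value became 3.05 in J2 lf/lf, 0.52 in J17a, 0.63 in J17b and 5.87 in J27a, in place of -3.93, -6.46, -6.34 and -1.11. In J27b, Gh, Prl and Pomc kept a negative fitted value without that library, at -3.41, -2.12 and -0.60. Without J1 lf/lf replicate 3, Gh in J1 lf/lf was fitted at -7.03 and Prl at -6.34.

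**Figure D2:**
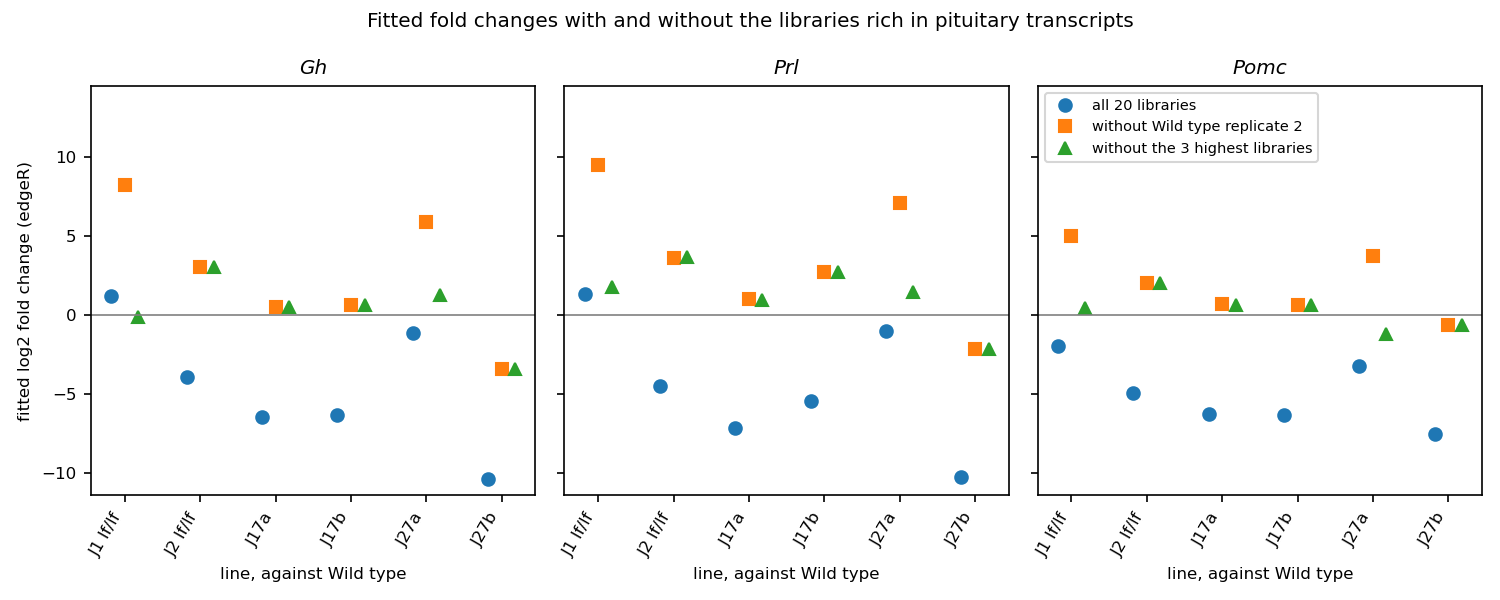
Fitted log2 fold change (edgeR) of Gh, Prl and Pomc in each line against Wild type, with all 20 libraries (circles), without Wild type replicate 2 (squares) and without the 3 libraries highest in these genes (triangles). For J2 lf/lf, J17a, J17b and J27a the circles lie below 0 and the squares above it in all 3 panels, as for Gh in J17a at -6.46 and 0.52.

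The ratios between hormones differed from library to library. They were taken on estimated counts within a library, with exact 95% intervals that cover counting error only, and no test between genotypes was made on them. Prl to Gh was 0.202 (0.198 to 0.207) in J1 lf/lf replicate 3, 0.201 (0.192 to 0.210) in J27a replicate 3 and 0.187 (0.182 to 0.192) in Wild type replicate 2. Over the value of Wild type replicate 2 these are folds of 1.08 (1.05 to 1.12) and 1.07 (1.02 to 1.13). It was lower in J2 lf/lf replicate 2, at 0.130 (0.112 to 0.150), a fold of 0.694 (0.600 to 0.802). In the 6 other libraries with at least 20 counts of the pair, it ran from 0.400 (0.199 to 0.763) in J1 lf/lf replicate 1 and 0.361 (0.268 to 0.482) in J17b replicate 2 to 0.0752 (0.0352 to 0.143) in Wild type replicate 3.

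Pomc to Gh varied far more than Prl to Gh. It was 0.0910 (0.0884 to 0.0937) in J1 lf/lf replicate 3, 0.368 (0.334 to 0.404) in J2 lf/lf replicate 2, 0.197 (0.188 to 0.206) in J27a replicate 3 and 0.836 (0.823 to 0.849) in Wild type replicate 2. Relative to Wild type replicate 2 the fold was 0.109 (0.105 to 0.113) in J1 lf/lf replicate 3, 0.440 (0.400 to 0.484) in J2 lf/lf replicate 2 and 0.235 (0.224 to 0.247) in J27a replicate 3. None of these intervals overlap, and Prl to Pomc likewise ran from 2.22 (2.15 to 2.30) in J1 lf/lf replicate 3 and 1.02 (0.961 to 1.08) in J27a replicate 3 to 0.223 (0.217 to 0.230) in Wild type replicate 2. J17a replicate 1, with 343 counts of Gh, had a ratio of 0.799 (0.679 to 0.939), near that of Wild type replicate 2, and J27a replicate 1, with 360, had 0.0583 (0.0357 to 0.0905). Ratios above 1 occurred where Gh counts were few, since Pomc was present in all libraries.

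Within the glycoprotein hormones, Lhb to Cga varied little among the 4 libraries richest in pituitary transcripts. Lhb to Cga was 0.233 (0.203 to 0.267) in J1 lf/lf replicate 3, 0.241 (0.124 to 0.438) in J2 lf/lf replicate 2, 0.202 (0.159 to 0.253) in J27a replicate 3 and 0.225 (0.202 to 0.2502) in Wild type replicate 2. All 3 folds over Wild type replicate 2, at 1.04, 1.07 and 0.897, had intervals that include 1, the one of J2 lf/lf replicate 2 being wide (0.593 to 1.94). In other libraries the 2 genes parted, with 7 estimated counts of Lhb in J2 lf/lf replicate 3, 9 in J17b replicate 1 and 9 in Wild type replicate 3, all beside 0 of Cga. By contrast Cga to Gh was 0.386 times its value in Wild type replicate 2 in J1 lf/lf replicate 3 (0.358 to 0.416), 0.647 times in J2 lf/lf replicate 2 (0.496 to 0.844) and 0.729 times in J27a replicate 3 (0.657 to 0.810). Fshb to Lhb was 0.809 in J1 lf/lf replicate 3, 1.23 in J27a replicate 3 and 0.786 in Wild type replicate 2, with folds of 1.03 (0.818 to 1.30) and 1.57 (1.15 to 2.14) over the last. Tshb to Gh had folds over Wild type replicate 2 whose intervals include 1: 0.919 (0.700 to 1.21) in J1 lf/lf replicate 3 and 0.694 (0.427 to 1.13) in J27a replicate 3. Tshb to Cga was 2.38 times (1.79 to 3.16) as high in J1 lf/lf replicate 3 as in Wild type replicate 2, and 0.952 times (0.579 to 1.56) in J27a replicate 3. Taken from TPM in place of counts, all 32 folds of this kind stayed within their count intervals. In whole-tissue RNA, fewer cells of a type and less RNA per cell cannot be told apart.

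**Figure D3:**
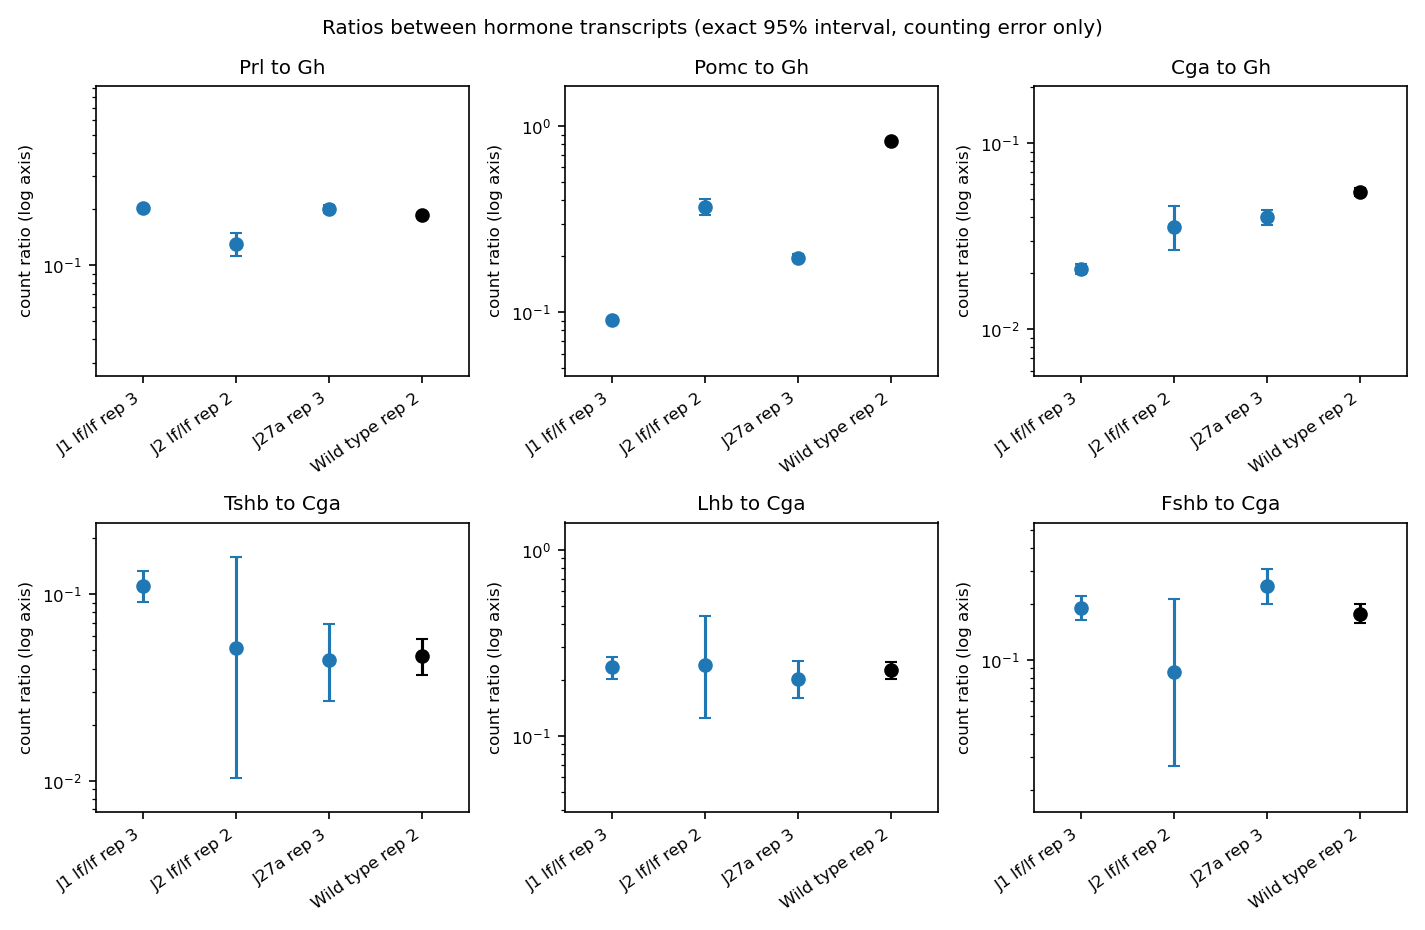
Ratios between hormone transcripts in the 4 libraries with the most pituitary RNA, as ratios of estimated counts on a log axis of the same span in each panel, with exact 95% intervals (black, Wild type). Pomc to Gh runs from 0.0910 to 0.836, whereas Lhb to Cga stays between 0.202 and 0.241.

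Some further pituitary genes were at their highest in the same libraries. The genes most like Gh across the 20 libraries, by Pearson's r on log2(CPM + 1), were Mat1a (0.883), Epcam (0.872), Gnrhr (0.854), Tgfbr3l (0.827) and Six6 (0.821), followed by Rab25, Cyp2f2, Pitx1 (0.805), Tbx19 (0.791) and Oacyl (0.790). Their Spearman's rho was lower, between 0.114 (Pitx1) and 0.622 (Gnrhr), and over the 17 other libraries r ran from -0.32 (Pitx1) and 0.134 (Epcam) to 0.462 (Oacyl) and 0.734 (Mat1a). These genes were picked by their correlation with Gh over the same 20 libraries. Their high levels in the libraries rich in Gh therefore follow from the choice and are a description only. Gnrhr passed the filter on low counts only through those libraries. Gnrhr, the gonadotroph receptor for gonadotropin-releasing hormone, stood at 1.07 TPM in J1 lf/lf replicate 3, 0.52 in J27a replicate 3 and 1.31 in Wild type replicate 2, and at 0 in the other 17. Tbx19, the transcription factor of the Pomc lineages, stood at 1.55 TPM in J1 lf/lf replicate 3, 0.67 in J27a replicate 3 and 5.11 in Wild type replicate 2, with at most 0.25 elsewhere. Tbx19 thus ordered these libraries as Pomc did, and its ratio to Pomc was 0.00771 (0.00545 to 0.0106) in J1 lf/lf replicate 3, 0.00765 (0.00445 to 0.0123) in J27a replicate 3 and 0.00642 (0.00552 to 0.00742) in Wild type replicate 2. Pitx1, an early pituitary transcription factor, stood at 2.74 TPM in J1 lf/lf replicate 3, 0.69 in J27a replicate 3 and 3.47 in Wild type replicate 2, against at most 0.24 elsewhere. Lhx3, which pituitary development requires, stood at 1.37, 0.81 and 3.01 TPM in the same libraries and at up to 1.09 in the rest.

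Other genes of the axis were present across most or all libraries. Of 11 pituitary transcription factors 8 were tested, and Lhx4 ran from 0 to 1.28 TPM. Crhr1, the receptor for corticotropin-releasing hormone, ran from 20.9 to 33.6 TPM and Trhr, that for thyrotropin-releasing hormone, from 2.46 to 6.34 TPM, both with their highest level in a J17a library. The granin genes Chga and Chgb, made in neurons and endocrine cells alike, ran from 181 to 311 and from 337 to 513 TPM, both highest in Wild type replicate 2. Among the releasing hormones of the hypothalamus, Ghrh ran from 0 to 3.78 TPM, Crh from 10.3 to 22.9 TPM, Gnrh1 from 0 to 3.75 TPM and Trh from 3.72 TPM, in Wild type replicate 2, to 32.2 TPM. The receptors that the hormones act on included Ghr at 5.57 to 11.05 TPM and Prlr at 2.19 TPM, in Wild type replicate 2, to 7.96 TPM. Igf1, which growth hormone induces in many tissues, ran from 3.03 to 6.74 TPM and Socs2, a feedback inhibitor of growth hormone signalling, from 6.99 to 12.8 TPM. Over 12 comparisons and 14 lists of other genes (94 distinct genes tested), none was called by edgeR after adjustment, and 92 of 1140 tests (8.07%) had an unadjusted p under 0.05, beside 5.71% of the tests of all genes.

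Sensory ganglion markers were at their highest in 1 of the hormone-rich libraries. The 6 sensory ganglion markers summed to 56.96 TPM in Wild type replicate 2, against 8.46 to 38.6 TPM in the other 19 libraries. They include Prph, an intermediate filament of peripheral neurons, at 23.9 TPM, Scn10a, a sodium channel of sensory neurons, at 3.75 TPM, and Calca at 20.8 TPM in Wild type replicate 2, each at its highest there. The sum was 11.45 TPM in J1 lf/lf replicate 3, where the hormones were most abundant, and 21.9 in J27a replicate 3. In J27a replicate 3, Scn10a at 0.75 TPM was second to Wild type replicate 2 (3.75 TPM). So was Avil, a gene of sensory neurons named after its values were seen, at 1.05 TPM against 7.52 TPM. Outside the 3 libraries, Scn10a and Avil reached at most 0.40 and 0.79 TPM. The other markers did not stand out in J27a replicate 3, where Prph ranked 8 from the top, Calca and Trpv1 ranked 9, and Pmp2 was at 0. The sum of the markers ranked 10 there. Wild type replicate 2 also had the lowest sum of 9 other hypothalamic neuropeptides, 357 TPM against 424 to 1229.9 TPM, with Avp (vasopressin) at 5.58 TPM and Cartpt at 22.4 TPM, their lowest levels. Oxt and Pmch were lowest there too, but Npy, 278.9 TPM of that sum, ranked 7 from the top, and Agrp, Qrfp and Gal ranked 10. The sum of choroid plexus markers in Wild type replicate 2, 750.5 TPM, was the lowest of the 20 as well, while J1 lf/lf replicate 3 stood at 2954 TPM. Ttr made up 709 TPM of the 750.5 TPM. In Wild type replicate 2, Ttr and Kl were at their lowest, whereas Folr1, Kcne2, Clic6, Sostdc1 and Aqp1 ranked from 12 (Aqp1) to 19 (Clic6). J1 lf/lf replicate 3 had the highest sum of red blood cell markers, 14410.3 TPM against 2851 to 8478 TPM. The part of these tissues in the hormone values was not tested.

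**Figure D4:**
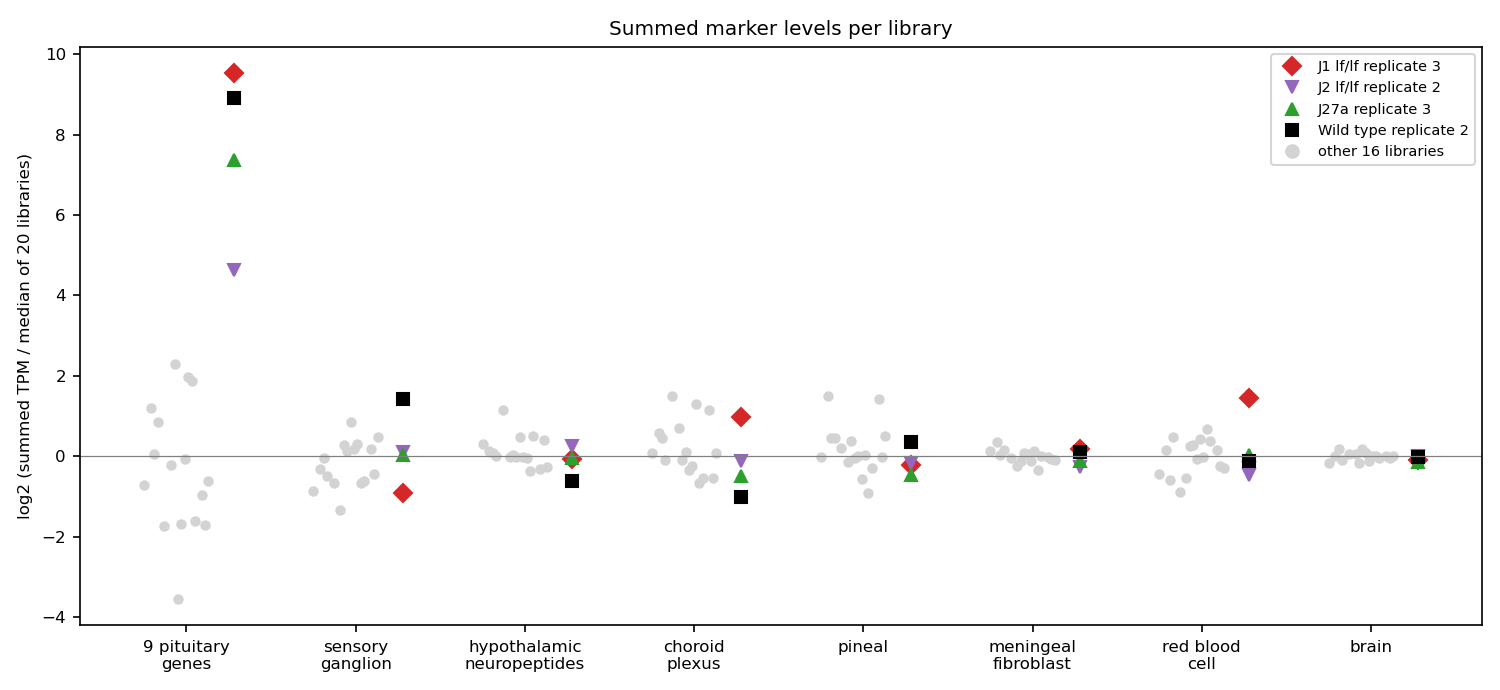
Summed TPM of each marker list per library, as the log2 ratio to the median of the 20 libraries, with the 4 libraries richest in pituitary transcripts in colour or black and the other 16 in grey. The 9 pituitary genes separate the 4 libraries from the rest, the sensory ganglion markers are highest in Wild type replicate 2 (56.96 TPM), and the brain markers stay within 9662 to 12231 TPM.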

How the data were processed

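Brain RNA was treated with DNase, enriched for poly(A) and read paired-end on a NovaSeq6000, per the labels' protocols. The deposited tables hold the authors' estimated counts and TPM values, made by RSEM after cutadapt on build mm10, per the submitters' processing notes. Their versions, annotation and strand setting are not given in the sources used. All counts of the 9 members were whole.

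Libraries were grouped by their titles and genotype labels. Estimated counts were rounded and tested with edgeR 4.0.16 in R 4.3.3 (TMM factors of 0.975 to 1.03, filterByExpr, robust quasi-likelihood fit of all 20 libraries with 1 mean per group, two-sided). The fit left 16063 of 23845 genes, and p-values were adjusted over all of them within each of 12 comparisons and the test over all groups. Count ratios carry exact (Clopper-Pearson) 95% intervals wherever both counts together reached 20. The scripts were tested on simulated counts with a dispersion of 0.0144, far below the dispersions of the members. Alternatives used DESeq2 1.42.0 size factors or its test, no filter on low counts, limma 3.58.1 on log2(TPM + 1) or log2(TPM + 0.1), the contrast's own groups, the replicate number as a block, each library left out, and the 3 libraries richest in Gh, Prl and Pomc left out. Positions came from GENCODE M21, promoters from RefSeq. Every pair of replicates differed by more than sampling noise. The members and lists were chosen with earlier results of these data known. All members are named, with the 15 genes most like Gh as candidates and up to 4 genes of each other list.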

Additional observations from a re-analysis of the deposited data

How the results depend on the processing

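No alternative called a member that it tested. All 9 members were tested in 156 of 205 counts over the comparisons and alternatives, and fewer in 49: 2 by DESeq2, 2 to 4 with only the groups of the contrast, 4 without the 3 libraries highest in Gh, Prl and Pomc, and 8 without J1 lf/lf replicate 3 or without Wild type replicate 2. All 205 counts were 0, and the lowest adjusted p was 0.350, for Pomc in the edgeR test over all groups without Wild type replicate 3. The replicate numbers of the titles did not pair the libraries (same-number correlations ran from -0.28 to 0.27, and 5 of 20 libraries correlated best with their own number). With the replicate block, 0 members were called, at most 3 had an unadjusted p under 0.05 in a comparison and the lowest adjusted p was 0.690 (edgeR). Of 266 alternative fold changes of Gh, Prl and Pomc against Wild type, 28 changed sign, all where a library rich in these transcripts was left out. With 1 library left out, the log2 fold change of Gh ran from -7.03 to 8.199 in J1 lf/lf, -10.34 to 3.05 in J2 lf/lf, -16.15 to 0.52 in J17a, -16.18 to 0.63 in J17b and -5.69 to 5.87 in J27a. That of Prl ran from -6.34 to 9.47 in J1 lf/lf, -9.75 to 3.63 in J2 lf/lf, -13.73 to 0.98 in J17a, -13.76 to 2.73 in J17b and -6.66 to 7.10 in J27a. That of Pomc ran from -6.46 to 4.996 in J1 lf/lf, -7.12 to 2.03 in J2 lf/lf, -8.28 to 0.67 in J17a, -6.87 to 0.64 in J17b and -8.12 to 3.73 in J27a. Without the 3 libraries highest in these genes, Gh changed sign to -0.10 in J1 lf/lf, 3.04 in J2 lf/lf, 0.48 in J17a, 0.61 in J17b and 1.25 in J27a. Prl changed to 3.67 in J2 lf/lf, 0.94 in J17a, 2.73 in J17b and 1.44 in J27a, and Pomc to 0.45 in J1 lf/lf, 2.04 in J2 lf/lf, 0.66 in J17a and 0.64 in J17b. Low counts outside those libraries limit every ratio and the calls of 0 for Pou1f1, Ghrhr, Fshb and Tshb.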
